A study of Homo sapiens with 4 samples.

Results

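The intergenic peaks of IGF2BP2 that lay on one strand only were taken from the peak lists of the 2 IGF2BP2 iRIP-seq libraries of Jurkat, a human T-ALL cell line. A peak was selected when the largest share of its length was intergenic in the authors' annotation and no peak of the same list shared at least 1 bp with it on the opposite strand. This gave 40900 of 145715 peaks in replicate 1 (28.1%) and 34330 of 137934 in replicate 2 (24.9%), or 75230 of 283649 in all. In iRIP-seq the cells are crosslinked with UV light and the RNA bound to the protein is immunoprecipitated and sequenced. Both libraries came from Jurkat cells with the anti-IGF2BP2 antibody, with no treatment named,, and the 2 input libraries were not analysed here. The height of a peak is the number of overlapping reads, in tags, averaged over its bins of 50 nt. Positions are those of the lists, on GRCh38, and the depth of the libraries is unknown.

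IGF2BP2 is an RNA-binding protein that reads m6A, the methylated adenosine of RNA, and it is known for holding mRNA in a stable and translated state. Its sites are mostly described in mature mRNA. An intergenic peak lies outside the genes of the annotation in use, and annotations differ most in their lncRNA genes and pseudogenes. A transcript has the sequence of one strand of the DNA, so when bound it leaves peaks on that strand.

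At 8 places a member of both lists shared bases on one strand and also covered a promoter window of RefSeq, a stretch from 250 bases before to 50 after a gene's start. Of these, 6 at 5 genes are shown, as examples of members that recurred at gene starts, and the sites at SPRN (4 and 6 tags) and ZBTB45 (5 and 6 tags) are not printed. Each is the part of the replicate 1 member inside the window (RefSeq, GRCh38.p14), read on the strand of the peak. Capitals mark GGAC, which the paper gives as the m6A core within a wider consensus (GGAU/G/A/C) bound by IGF2BP2. MIR17HG, the host transcript of the miR-17-92 miRNAs, gave chr13:91347701-91347736 on the plus strand. KLF12, a transcription factor gene, gave chr13:74133951-74134000 on the minus strand. TNRC6C, a scaffold protein of miRNA silencing, gave chr17:77958701-77958750 on its own plus strand and chr17:77957551-77957600 on the minus strand, at different start sites. ARL15, a small GTPase gene on the minus strand, gave chr5:54310751-54310823 on the plus strand, and the lncRNA LOC105372705 gave chr20:62066451-62066500 on its own plus strand.
MIR17HG: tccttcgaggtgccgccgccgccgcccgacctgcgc
KLF12: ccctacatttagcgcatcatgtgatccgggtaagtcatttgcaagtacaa
TNRC6C plus: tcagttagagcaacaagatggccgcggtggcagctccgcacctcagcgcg
TNRC6C minus: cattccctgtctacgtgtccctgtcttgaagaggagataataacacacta
ARL15: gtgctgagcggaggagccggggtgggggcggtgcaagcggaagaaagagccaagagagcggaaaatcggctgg
LOC105372705: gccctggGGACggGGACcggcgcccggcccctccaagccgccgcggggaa
Among these, LOC105372705 held GGAC and the others did not within the stretch shown, and the wider consensus was not marked. Over all members of 50 nt that lay wholly in a promoter window, GGAC was found in 24 of 121 in replicate 1 (19.8%) and 17 of 118 in replicate 2 (14.4%), against 17.1% of 421392 stretches of 50 nt from all windows, read on the gene's strand and its reverse. The values of the replicates thus lay on either side of that of promoter sequence at large.

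Most intergenic peaks were on one strand only. They made up 96.4% of the 42444 intergenic peaks of replicate 1 (95% Wilson interval 96.2% to 96.5%) and 91.5% of the 37499 of replicate 2 (91.3% to 91.8%), a mean of 94.0% ± 3.40 (SD, n = 2). The remaining 1544 and 3169 intergenic peaks had an overlapping peak on the opposite strand and are called both-strand peaks here. This share is what the rule selects and is a description. The members were balanced between the strands, with 50.3% on the plus strand in replicate 1 and 50.8% in replicate 2. Each intergenic peak was intergenic over its whole length.

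The members were low and short. In replicate 1, 82.4% of them had the lowest listed height of 4 tags, and in replicate 2, 74.0% had the lowest listed height of 5 tags. A single bin of 50 nt was covered by 99.3% and 98.5% of them. At least 10 tags were reached by 135 members of replicate 1 (0.330%) and 492 of replicate 2 (1.43%), a mean of 0.882% ± 0.780 (SD, n = 2), while the same was true of 1.68% and 5.97% of all listed peaks. Among both-strand intergenic peaks that share was 16.5% and 28.1%. The rule used the opposite strand of the same list, so the contrast in height is a description. The highest members had 91 and 161 tags.

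**Figure D1:**
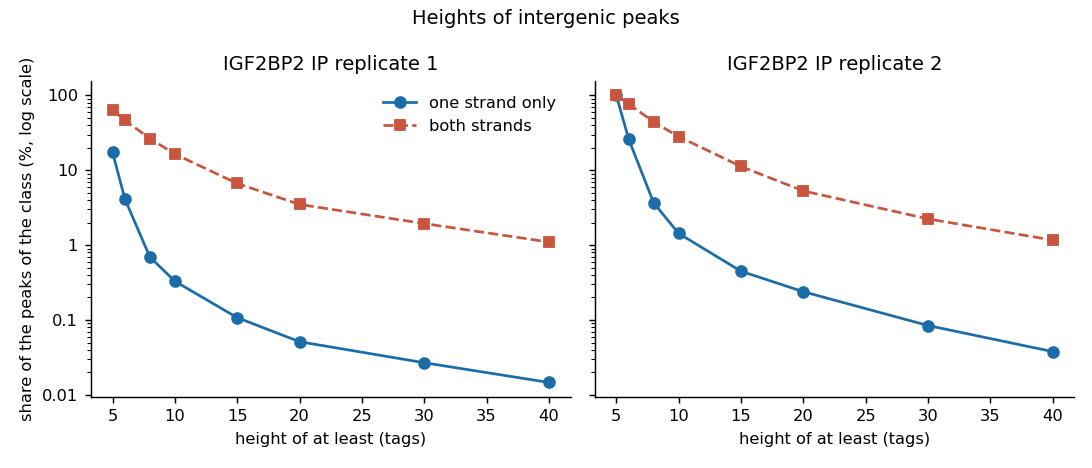
Share of intergenic peaks (vertical axis, %, log scale) that had at least the height on the horizontal axis (tags), for peaks on one strand only (circles) and on both strands (squares) in replicates 1 and 2. At 10 tags the one-strand peaks were at 0.330% and 1.43% and the both-strand peaks at 16.5% and 28.1%.

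Few members recurred between the replicates. A peak of the other list shared at least 1 bp on the same strand with 594 members of replicate 1 (1.45%, 1.34% to 1.57%) and 523 members of replicate 2 (1.52%, 1.40% to 1.66%), a mean of 1.49% ± 0.0503 (SD, n = 2). Among all peaks the same was true of 9.19% in replicate 1 and 9.62% in replicate 2, so the members recurred less often than the lists as a whole. Intron peaks were overlapped in 7.11% and 7.12% of cases and CDS peaks in 45.8% and 35.0%. The difference from intron peaks was -5.66 percentage points in replicate 1 and -5.60 in replicate 2, and both adjusted p values were below 1e-300 (two-sided Fisher's exact test, Benjamini-Hochberg over 6 differences). Against antisense peaks, which lie on the strand opposite an annotated gene, the members were 0.798 points higher in replicate 1 (adjusted p = 3.23e-24, the same exact test) and 0.703 higher in replicate 2 (adjusted p = 2.54e-14, the same exact test). Among peaks of at least 10 tags the order was the other way. There 41.5% of 41 antisense peaks against 25.2% of members were overlapped in replicate 1, and 33.3% of 93 against 17.3% in replicate 2. Peaks of a library share their source and lie in groups, so these tests compare classes of peaks in these libraries and not conditions. Their p values are too small where neighbouring peaks depend on each other. The shares of the 2 replicates are also the sides of a single comparison of the lists, so their SD does not measure independent replication.

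The members were also overlapped less often than both-strand intergenic peaks, of which 16.4% and 10.1% were overlapped on the same strand. The difference was -14.9 percentage points in replicate 1 (adjusted p = 5.65e-159, Fisher's exact test) and -8.54 for replicate 2 (adjusted p = 1.40e-126, the same exact test). It was found among the low peaks. At the lowest height 0.841% of members and 10.7% of both-strand peaks were overlapped in replicate 1, and 0.726% and 5.69% in replicate 2. From 10 to under 20 tags the observed order was the other way, with 26.3% of 114 members against 14.5% of 200 both-strand peaks in replicate 1, and 17.1% of 410 against 12.3% of 724 in replicate 2. From 20 tags up the values were 19.05% of 21 against 20.4% of 54 in replicate 1 and 18.3% of 82 against 13.1% of 168 in replicate 2. With peaks under 10 tags removed from both lists and the rule applied again, the difference had opposite signs in the replicates, 2.46 points in replicate 1 (Fisher's exact test, p = 0.539) and -0.926 for replicate 2 (the same exact test, p = 0.383).

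The share of members that recurred rose with height, though it stayed under that of intron peaks. In replicate 1 it went from 0.841% at under 5 tags to 2.77% from 5 to under 6, 7.42% from 6 to under 8 and 14.9% from 8 to under 10 tags. In replicate 2 it went from 0.726% at under 6 tags to 2.42% from 6 to under 8 and 9.03% from 8 to under 10. Members of at least 10 tags were overlapped in 34 of 135 cases in replicate 1 (25.2%, 18.6% to 33.1%) and 85 of 492 in replicate 2 (17.3%, 14.2% to 20.9%), while among all peaks of that height it was 64.4% and 54%. The highest members did not follow the rise, since of those with at least 40 tags 1 of 6 was overlapped in replicate 1 and 1 of 13 in replicate 2. Opposite-strand overlap of members rose with height as well. From the lowest heights to 8 to under 10 tags it went from 0.690% to 17.6% in replicate 1. In replicate 2 it went from 0.698% to 5.76%. At 8 to under 10 tags in replicate 1 it was above the same-strand share. Intron peaks of that height were overlapped on the opposite strand in 0.660% and 0.684% of cases.

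**Figure D2:**
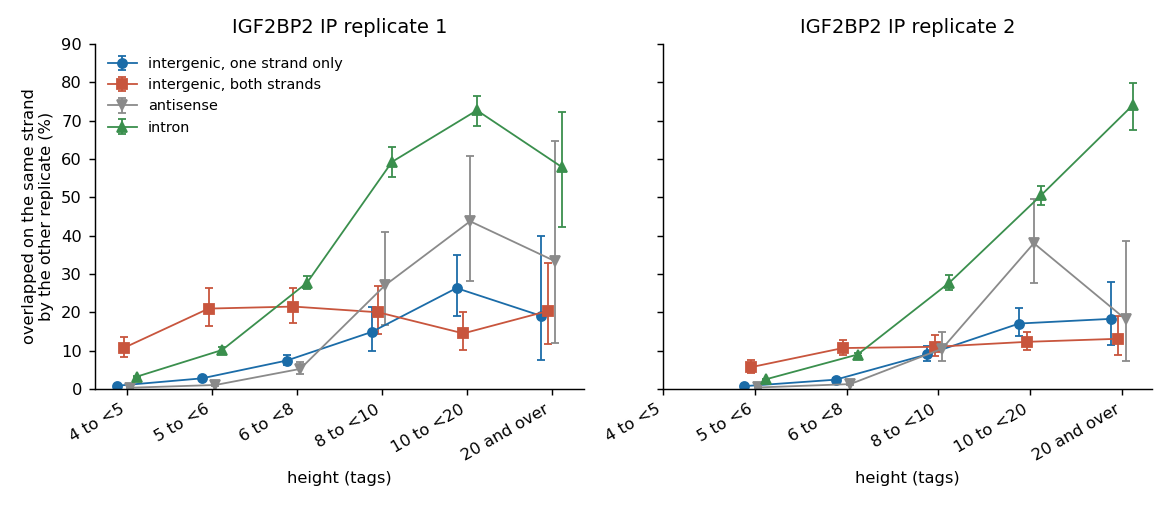
Share of peaks that met a peak of the other replicate on the same strand (vertical axis, %) against height (horizontal axis, tags) for 4 classes of peaks, with 95% Wilson intervals as bars. Replicate 2 lists no peak under 5 tags, and the one-strand intergenic peaks reached 26.3% and 17.1% from 10 to under 20 tags, below intron peaks at 72.7% and 50.6%.

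The strand of the overlapping peak was then compared. In replicate 1, 594 members were overlapped on their own strand and 480 on the opposite strand (1.17%), and in replicate 2, 523 and 410 (1.19%). Opposite-strand overlap had a mean of 1.18% ± 0.0146 (SD, n = 2) among members, and among all peaks it was 0.857% and 0.903%. Members overlapped only on their own strand outnumbered those overlapped only on the opposite strand by 413 to 299 in replicate 1 (two-sided exact binomial test, p = 2.20e-05) and 407 to 294 in replicate 2 (the same exact test, p = 2.25e-05). Overlap between the lists is mutual, so the shares and tests of the 2 replicates rest largely on the same pairs and are not independent. The p values are also too small where neighbouring peaks depend on each other. The rule removes peaks with an opposite-strand partner in their own list and so can lower the opposite-strand count. Over all intergenic peaks, where nothing was removed, the counts were 530 to 415 (p = 0.000205, the same exact test) and 585 to 473 (p = 0.000637, the same exact test). The surplus was small beside that of peaks on genes. CDS peaks of replicate 1 were overlapped on the same strand in 45.8% and on the opposite strand in 0.508% of cases, and intron peaks in 7.11% and 0.292%.

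Same-strand overlap exceeded opposite-strand overlap among members within 100 kb of a RefSeq gene, and beyond that the strands were level. Of the members of replicate 1, 5811 (14.2%) lay on the interval of a RefSeq gene, on either strand, although the authors' annotation called them intergenic, and of replicate 2, 4652 (13.6%). There the same strand was overlapped in 1.10% and the opposite strand in 0.379% of members of replicate 1, and in 1.33% and 0.494% in replicate 2. Within 1 kb outside a gene the values were 1.02% and 0.409% in replicate 1, and 1.35% and 0.554% in replicate 2. From 1 to 10 kb both strands were low, at 0.519% and 0.378% in replicate 1 and 0.582% and 0.411% in replicate 2. From 10 to 100 kb, the range with the most members, the values were 0.869% and 0.619% (153 and 109 members) in replicate 1 and 0.986% and 0.664% (135 and 91 members) in replicate 2. The surplus in members was thus of like size there and on the gene intervals, where the counts were 64 and 22 in replicate 1 and 62 and 23 in replicate 2. Among members over 100 kb from any RefSeq gene, 6.13% (5.49% to 6.84%) were overlapped on the same strand and 6.11% (5.48% to 6.81%) on the opposite strand in replicate 1, and 4.52% (4.002% to 5.09%) and 4.48% (3.97% to 5.05%) in replicate 2. The exact binomial test of the strand gave p = 1 and p = 0.956 in these distant members, against p = 6.22e-09 and p = 8.78e-09 in members within 100 kb. This split was chosen after the data were seen, so its p values are a description. The members over 100 kb away were 12.04% and 16.3% of all members but held 50.8% and 48.4% of the overlapped ones. They also held 65 of the 135 members of at least 10 tags in replicate 1 and 273 of 492 in replicate 2.

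**Figure D3:**
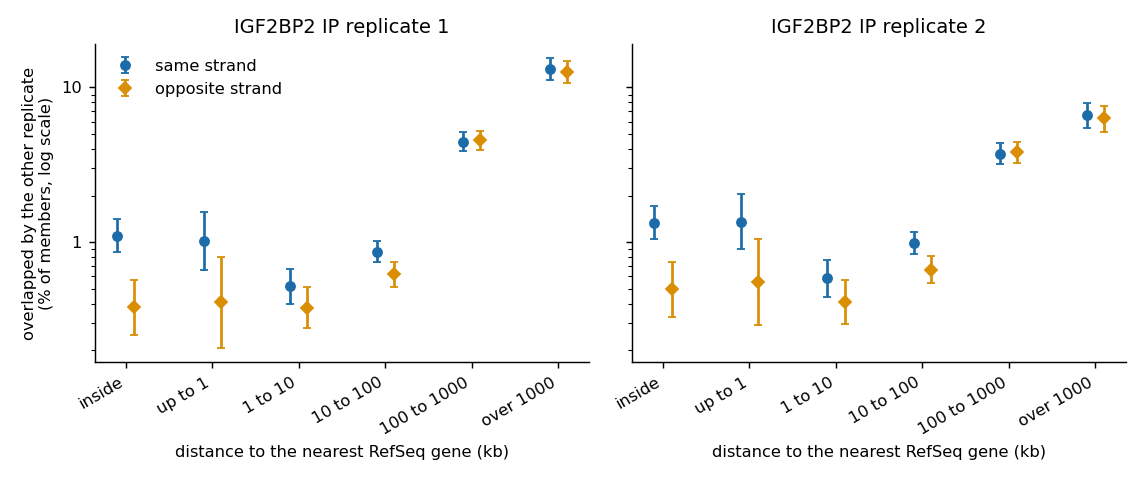
Share of one-strand intergenic peaks that met a peak of the other replicate (vertical axis, %, log scale) on the same strand (circles) or the opposite strand (diamonds), by distance to the nearest RefSeq gene (horizontal axis, kb), with 95% Wilson intervals. The strands were apart inside genes (1.10% and 0.379% in replicate 1) and level over 1000 kb from them (13.1% and 12.6%).

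By type of gene, given as a description, most members on a RefSeq interval were on lncRNA genes, 4268 in replicate 1 and 3252 in replicate 2, and of these 0.679% and 0.892% were overlapped on the same strand and 0.258% and 0.338% on the opposite strand. Protein-coding intervals held 1237 and 1031 members, with 1.86% and 2.04% overlapped on the same strand and 0.323% and 0.388% on the opposite strand. Pseudogenes held 172 and 162, of which 7 were overlapped on the same strand in either replicate (4.07% and 4.32%) and 1 on the opposite strand. Transcribed pseudogenes held 73 and 69, with 3 overlapped on the same strand in either replicate and 2 and 3 on the opposite strand. No member overlapped a miRNA hairpin. Members within 10 kb of a gene whose strand was known lay on its strand and downstream in 28.0% and 28.1% of cases, on its strand and upstream in 22.6% of both lists, on the other strand and downstream in 26.1% and 25.9%, and on the other strand and upstream in 23.2% and 23.4%. The 4 positions were thus filled alike in both replicates, with little preference for the stretch that follows a gene on its strand.

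The distance to the nearest peak with a gene, a peak of CDS, UTR, noncoding exon or intron in the same list, had a median of 82.1 kb in replicate 1 and 94.1 kb in replicate 2. Within 10 kb of such a peak were 6.72% and 7.50% of the members, and over 100 kb from any such peak 44.2% and 48.3%. The few members within 1 kb, 169 in replicate 1 and 214 in replicate 2, stood out in their overlap. On the same strand 8.28% (5.00% to 13.4%) and 10.3% (6.89% to 15.1%) of them were overlapped, and on the opposite strand 1.18% and 2.34%. Between 10 and 100 kb those shares were 0.573% and 0.354% in replicate 1 and 0.725% and 0.468% in replicate 2. Over 1000 kb away they were high and alike for the strands, at 10.6% and 10.4% in replicate 1 and 6.17% and 5.66% in replicate 2. For the members within 1 kb, the nearest such peak was on the same strand in 55.6% and 63.6% of cases, and for those from 10 to 100 kb in 50.2% and 51.2%.

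Part of the members had a neighbour nearby. Chained at gaps of at most 10 kb on one strand, 33.2% of the members of replicate 1 and 33.8% of replicate 2 were in a cluster of at least 2. Most of these were in pairs only, 8834 of 13569 in replicate 1 and 6258 of 11590 in replicate 2. The share that the density of members alone would give was not tested, so this share is a description. Same-strand overlap rose from 0.695% and 0.660% of members alone to 1.18% and 1.21% in pairs, 3.25% and 3.01% in clusters of 3 or 4, and 10.2% and 6.83% in clusters of 5 to 9. Clusters of at least 20 numbered 15 with 469 members in replicate 1 and 28 with 1022 members in replicate 2, and 14.3% and 7.14% of these members were overlapped. Opposite-strand overlap rose with cluster size too, from 0.662% and 0.589% of members alone to 1.08% and 1.29% in pairs. It was 7.50% and 4.68% in clusters of 5 to 9, and 10.0% and 5.09% in those of at least 20.

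The largest clusters were at the same places in both lists. On chromosome 21, 62 members on the plus strand spanned chr21:10644000-10752600 in replicate 1, with heights from 4 to 9 tags, and 91 spanned chr21:10643050-10741150 in replicate 2, with heights from 5 to 11 tags. They lay around the pseudogene IGHV1OR21-1, a copy of an immunoglobulin variable segment. A second group on chromosome 21, at 7.9 Mb, held 41 members (chr21:7915800-7968650) and 77 members (chr21:7916200-7975400), none of them above 9 tags, 58793 and 59193 nt from the lncRNA LOC105379505. On chromosome 22, 40 members (chr22:10710600-10759750) and 62 members (chr22:10712050-10782050) lay on the plus strand around the pseudogene LOC124905166. In these spans the minus strand also held members, 17 in replicate 1 at each of the 3 places and 33, 39 and 40 in replicate 2. On chromosome 10 a cluster of 45 members on the minus strand (chr10:41845750-41915850) faced one of 35 on the plus strand in replicate 1, and its maximum was 19 tags, while in replicate 2 it held 49 members and reached 92.3 tags. The stretches named on chromosomes 10, 21 and 22 lie next to centromeres or on the short arms of acrocentric chromosomes, which are rich in repeats. A table of repeats was not used here, and their part in the overlap was not tested.

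The recurrence was concentrated in few windows. Of 2878 windows of 1 Mb with a member in replicate 1, 198 held an overlapped one, and the 50 windows with most overlapped members held 387 of all 594 (65.2%) and 6.43% of the members. In replicate 2 the 50 such windows of that list held 330 of 523 (63.1%) and 11.3% of the members. These windows were ranked on the overlap itself, so their shares are a description. The window at 41 to 42 Mb of chromosome 10 held 25 overlapped members of 150 in replicate 1 and 25 of 203 in replicate 2, with 24 and 23 overlapped on the opposite strand. At 8 to 9 Mb of chromosome 21, 12 of 33 and 12 of 51 members were overlapped on the same strand and 1 on the opposite strand in either list. At 128 to 129 Mb of chromosome 7 the values were 8 of 30 and 8 of 40, again with 1 on the opposite strand. The first window thus recurred on both strands and the other 2 on one. These windows are examples and do not show how common each kind was. The windows ranking next in replicate 1 were like the first, with same-strand and opposite-strand counts near level. They were 20 and 17 at 40 to 41 Mb of chromosome 10, 20 and 18 at 28 to 29 Mb of chromosome 20, and 19 and 18 at 11 to 12 Mb of chromosome Y.

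The highest members were seldom found in the other replicate. In replicate 1 the highest was chr17:26884150-26884200 on the minus strand with 91 tags, 97491 nt from the pseudogene LOC100422478, and the next was chr5:49618450-49618550 on the minus strand with 61 tags, 777641 nt from EMB, which encodes the membrane protein embigin. The others of the 5 highest were chr21:8260850-8260900 with 50 tags, chr20:31176600-31176650 with 48 and chr1:143234200-143234250 with 46. Of these, the member on chromosome 21 shared bases on its strand with a peak of replicate 2, while that on chromosome 5 touched one without a shared base. For the other 3 the nearest peak of replicate 2 on the same strand was 1300, 150 and 250 nt away. In replicate 2 the highest was chr1:143257550-143257600 on the plus strand with 161 tags, 41917 nt from the lncRNA LOC101929814. It was followed by chr10:41913300-41913450 with 92.3 tags, chr4:49645550-49645650 with 77.5, chr21:8258900-8259000 with 76.5 and chr21:8458550-8458600 with 61. None of these 5 shared bases with a peak of replicate 1 on either strand, and the nearest one on the same strand lay at 850, 250, 250, 850 and 11400 nt.

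In 408 pairs a member of each list shared bases on the same strand, made of 407 members of replicate 1 and 408 of replicate 2. The other overlapped members met a both-strand intergenic peak of the other list, apart from 3 in replicate 1 and 1 in replicate 2 that met a peak on a gene. Both heights were at least 10 tags in 16 pairs and at the lowest listed values in 89. Across the 408 pairs the heights had a Pearson r of 0.522 on the log2 scale and a Spearman rho of 0.378, and for the 166 pairs over 100 kb from a RefSeq gene these were 0.437 and 0.267. Pairs were chosen by overlap and lie in groups, so the correlations are a description.

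**Figure D4:**
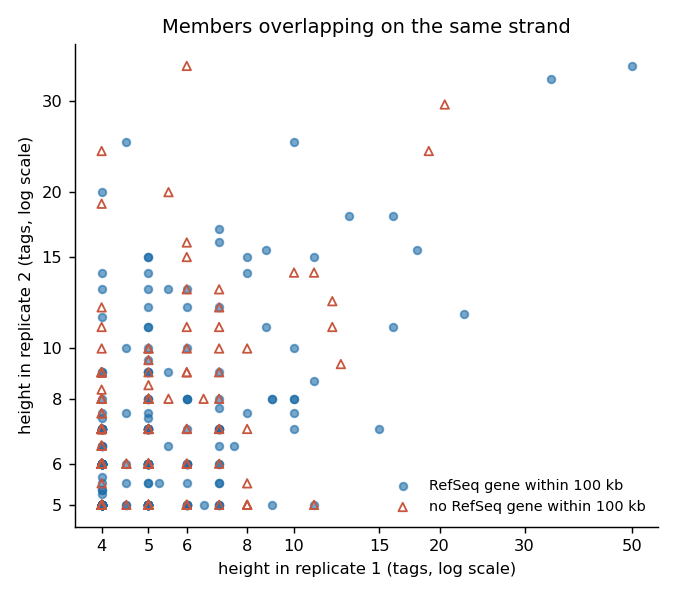
Height in replicate 2 (vertical axis, tags, log scale) against height in replicate 1 (horizontal axis, tags, log scale) for 408 pairs of one-strand intergenic peaks that shared bases on the same strand. Circles have a RefSeq gene within 100 kb and triangles have none. Both heights were at the lowest listed values in 89 pairs, and the 2 highest pairs, with 50 and 35 tags and with 34 and 33 tags, lie on chromosome 21.

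The pairs with the highest lower value of the 2 heights were led by places on the short arm of chromosome 21. Whether these are copies of ribosomal DNA was not tested. On the minus strand, chr21:8260850-8260900 had 50 tags in replicate 1 and 35 in replicate 2, on the pseudogene LOC110467529, and chr21:8257450-8257500 had 34 and 33 tags, 514 nt from RNA5-8SP10, a pseudogene of the 5.8S rRNA. On the plus strand, chr21:8260450-8260550 had 22.5 tags in replicate 1, and its partner in replicate 2 had 11.7. The fourth place nearby, chr21:8196250-8196300 on the minus strand, had 16 and 18 tags on the lncRNA LOC124904993. The first 2 of these minus-strand places were the highest pairs of all, while chr21:8258900-8259000, between them, had 76.5 tags in replicate 2 and no overlapping peak in replicate 1. Of the other 6 pairs among the first 10, 4 lay at 143 Mb of chromosome 1, at least 66617 nt from LOC101929814. They were chr1:143186100-143186200 (20.5 and 29.5 tags), chr1:143232800-143232900 (18 and 15.5), chr1:143205050-143205150 (13 and 18) and chr1:143227700-143227800 (16 and 11). The other two were chr10:40448200-40448250 (19 and 24 tags) and chr10:41910400-41910450 (12 and 12.3 tags).

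A smaller set of pairs lay at genes. These genes were picked after their values were seen, so their values are a description. LINC01000, a lncRNA gene at chr7:128641241-128660998, held 8 members in replicate 1 and 9 in replicate 2, of which 6 were overlapped in either list, none of them on the opposite strand. All but 1 of the 17 lay on the plus strand. The pair at chr7:128648750-128648800 had 8 and 14 tags, that at chr7:128651000-128651050 had 10 and 8, and that at chr7:128652450-128652500 had 5 and 6. The lists also held 8 and 11 peaks with a gene inside this interval, some within 50 nt of a member. These members thus alternated with peaks that the authors' annotation placed on a gene.

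The start of TNRC6C, at chr17:77957557-78108835, held members of both strands that recurred in both lists and shared no bases with each other. On the plus strand chr17:77958700-77958750 had 7 tags in replicate 1 and its partner 8 in replicate 2. On the minus strand chr17:77957850-77957900 had 7 tags and its partner 7.67, chr17:77958050-77958100 had 4 and 5, and chr17:77957550-77957600 had 4 and 5. In all, 6 of 7 members on the gene's interval were overlapped in replicate 1 and 4 of 4 in replicate 2. Among the 6 were chr17:77959000-77959050 and chr17:77959100-77959200, which met no member of replicate 2. No both-strand peak lay on the interval in either list, so these met peaks placed on a gene. The interval also held 39 and 42 peaks with a gene. The minus-strand members preceded the plus-strand ones along the chromosome, so that the strands pointed away from each other. At ARL15 the members also pointed away from the gene. On the plus strand, upstream of the gene's start, chr5:54310750-54310950 had 8.75 tags in replicate 1 and met 2 members of replicate 2, with 15.5 and 11 tags, and chr5:54311100-54311300 had 4.5 tags and met one of 7.5.

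MIR17HG had a single member in each list, at its start, on its own strand. It was chr13:91347700-91347750 with 7 tags in replicate 1 and chr13:91347700-91347800 with 6.5 tags in replicate 2, and it ended 2854 nt before the hairpin of MIR17. The member in the promoter window inside KLF12, chr13:74133950-74134000 on the gene's strand, had 6 tags in both lists. The other 6 members inside KLF12 in replicate 1 and 4 in replicate 2 were not overlapped. At LOC105372705 the heights were 10 and 8 tags. CENPM, which encodes a centromere protein, held 9 and 10 members, all on the minus strand, and 3 of them recurred, with 4, 5 and 6 tags in replicate 1 and 5, 9 and 5 in replicate 2. Over all promoter windows, 73 members of replicate 1 and 81 of replicate 2 lay on the gene's strand and 99 and 84 on the opposite strand. Of these 5 and 4 were overlapped on the gene's strand (6.85% and 4.94%), and 4 and 4 on the opposite strand (4.04% and 4.76%), and no member of either kind met a peak on its opposite strand in the other list.

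Single pseudogenes also carried a pair. HMGB1P5, a processed copy of HMGB1 on chromosome 3, had chr3:22381700-22381750 on the plus strand with 11 and 15 tags. GUSBP17, a copy of GUSB, had chr5:71220250-71220300 on the minus strand with 8 and 15 tags, and CYCSP30, a copy of CYCS, had chr12:87749000-87749050 with 6 and 8 tags. Reads of a pseudogene and of its parent gene can be near-identical, so the source of these reads is uncertain. Near SNAR-C1, which makes a small noncoding RNA, chr19:47953650-47953700 had 9 and 8 tags, 1981 nt from the gene.

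The RefSeq intervals with most members were long ones. IGK, the immunoglobulin kappa locus, spans 1378 kb and held 63 and 97 members, IGH 43 and 48, IGL 32 and 37, and TRB, the T cell receptor beta locus, 24 and 33. The lncRNA LOC105376755, of 673 kb, held 26 and 21. Recurrence in counts was at most 3 a locus. With 1.45% and 1.52% of all members overlapped, such counts are too small to tell the loci apart. In IGK, 3 members were overlapped on the same strand (4.76% and 3.09%) and 3 on the opposite strand in either list, and 8 and 20 both-strand peaks lay there as well. In IGH, TRB and LOC105376755 none was overlapped on the same strand, and 3 were in IGL (9.38% and 8.11%), all of them on the minus strand of LOC105372952, a lncRNA inside it. Heights stayed at or below 6, 6 and 5 tags in IGH, TRB and LOC105376755 in replicate 1, and 8, 9 and 11 in replicate 2.

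Around 17 genes of T-ALL and of the IGF2BP family, with 50 kb on either side, the members were few and low. Replicate 1 had 49 at 14 genes and replicate 2 had 28 at 12 genes, and 11 genes had some in both. MYB had 7 and 2, GATA3 6 and 4, LMO1 6 and 4, TAL1 5 and 3, and NOTCH1, the receptor whose activating mutations drive much of T-ALL, 2 and 2. LYL1 and NKX2-1 had none. No height was above 6 tags, and none of these members was overlapped on the same strand, in either list. With 1.45% and 1.52% of all members overlapped, fewer than 1 overlapped member would fall among so few, so nothing particular to these genes can be read from it.

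Members near the edge of the rule were overlapped more often than members at large, which is given as a description. An opposite-strand peak of the same list ended exactly where the member began, or the reverse, for 179 members of replicate 1 and 332 of replicate 2. Of these 9.50% and 6.93% were overlapped on the same strand by the other list, and their medians were 4 and 5 tags. The 1510 and 3055 peaks left out for a shared stretch of 50 nt had medians of 5 and 7 tags and were overlapped in 15.9% and 9.59% of cases. An opposite-strand peak within 1000 nt was present for 2555 and 3219 members, of which 6.03% and 6.15% were overlapped. Counting a peak on the opposite strand in either list, 40420 and 33920 of the members (98.8% of each) stayed on one strand, and 413 (1.02%) and 407 (1.20%) of these were overlapped.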

How the data were processed

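The series holds iRIP-seq of Jurkat cells, 2 IGF2BP2 IP libraries and 2 inputs. Read pairs of 150 bp were aligned by the authors with TopHat 2 (GRCh38 per the labels), who kept uniquely mapped reads, called peaks in each IP library against simulated reads and removed those overlapping input peaks. Heights were deposited as a signal in tags, not adjusted for depth, and the lists begin at 4 and 5 tags. The deposited p-value was used only as a filter. Groups came from the titles. The paper calls the replicates independent, without naming separate cultures, so their spread may be technical.

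The members and lists were chosen with earlier results of these data known. Positions were read as half-open, with an overlap of at least 1 bp. Intervals of shares are 95% Wilson intervals and hold counting error alone, since PCR copies are not independent molecules. Differences between classes were tested with Fisher's exact test (two-sided) and Benjamini-Hochberg adjustment over 6 differences, and strands by exact binomial tests. Named regions are the 5 highest members of each list, the 10 shared pairs with the highest lower height and the 3 clusters with most members in each list. Named genes are those nearest to them, 17 genes of T-ALL and the IGF2BP family with 50 kb on either side, and the 5 RefSeq genes with most members. The other loci were picked after their values were seen. Gene positions are RefSeq's (59792 genes, GRCh38.p14), with a strand for 27305 of them, taken from the promoter table. The gene positions come with a chromosome but no scaffold, so a gene of an unplaced piece can be misplaced. Alternatives changed the strand rule, the overlap, the minimum height, the p value and the cluster gap, and those by distance to a RefSeq gene and over all intergenic peaks were added after seeing the data. The functions were tested on simulated data. Python 3.11.15, numpy 2.4.6, pandas 2.3.3, scipy 1.17.1 and matplotlib 3.10.9 were used.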

Additional observations from a re-analysis of the deposited data

How the results depend on the processing

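The 10 results were recomputed under other settings. Of 69 values, 43 kept their direction and their side of the threshold or stayed within the SD of the replicates. Among them were all that left out a replicate, which show nothing further. Without a test such values could not leave the SD, and with a test they repeat the value of the other replicate. Asking for intergenic sequence over the whole length also changed nothing, since every intergenic peak met it. The strand surplus of 0.304 percentage points was 0.0280 among members over 100 kb from a RefSeq gene, where its test was lost. With peaks of at least 10 tags only, the difference between one-strand and both-strand peaks changed sign to 0.767 points and the one-strand share fell to 58.8%. Same-strand overlap rose to 8.54% (13.9% in replicate 1 and 3.23% in replicate 2), the clustered share was 47.3% and the share inside a RefSeq gene 4.46%. The median distance to a peak with a gene was 2857 kb, and 1.05% (0% and 2.11%) lay within 10 kb of such a peak. This setting also removed the peaks with a gene under 10 tags, so both values were taken to far fewer peaks and do not compare with the main ones. With no opposite-strand peak within 1000 nt, the one-strand share was 86.7% and same-strand overlap 1.10%. With p values under 0.001, the one-strand share was 76.0%, same-strand overlap 4.91% and the share of at least 10 tags 13.2%. Same-strand overlap was 2.31% when touching counted, 2.28% with strand ignored, 2.80% from 5 tags up (4.78% in replicate 1 and 0.830% in replicate 2, opposite moves), 1.11% with no opposite-strand peak in either list and 0.876% within 100 kb of a RefSeq gene, where the clustered share was 31.4%. With gene peaks on the same strand, the median distance was 159 kb and 4.02% lay within 10 kb, and with CDS or UTR peaks only, 389 kb and 3.67%. The clustered share was 7.76% at 1 kb, 85.2% at 100 kb and 51.3% on either strand. The causes were not tested. No paired analysis was possible because the inputs that share replicate numbers with the IP libraries were not analysed here. The unknown depth and the different lowest heights limit every comparison of heights between the lists.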
